A study of Mus musculus with 556 samples.

Results

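Of the non-clustered protocadherin genes, Pcdh7, Pcdh8, Pcdh9, Pcdh10, Pcdh15, Pcdh17, Pcdh18 and Pcdh20 were followed by DamID in single cells. The stages ran from the mouse oocyte through the zygote and the cleaving embryo to embryonic stem (ES) cells. Each gene was read as the 100 kb bins of the deposited table from its start to its end, which gave 38 of 24022 bins with values and 8 of 13297 distinct bin sets of protein-coding genes. Pcdh8 and Pcdh9 were singled out because their lamina signal moved in opposite directions between oocyte and zygote, so their values in those cells are given as a description, without a test.

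Protocadherins are cell adhesion proteins of the cadherin superfamily with extracellular cadherin repeats and a cytoplasmic tail. The clustered genes lie side by side in large arrays and give neurons surface identities, whereas the non-clustered ones are scattered over the genome as single genes. The delta-1 subgroup holds Pcdh7 and Pcdh9, and the delta-2 subgroup Pcdh8, Pcdh10, Pcdh17 and Pcdh18, whose tails can bind regulators of actin branching. Pcdh20 and the structurally divergent Pcdh15 are usually placed outside both. Most of the family is known from the developing nervous system, and Pcdh15 from the tip link that pulls open the transduction channels of inner ear hair cells. In many cell types long, gene-poor neuronal genes lie at the nuclear lamina, the protein mesh under the inner nuclear membrane, while they are silent.

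DamID marks such contacts with a bacterial adenine methyltransferase, Dam, that methylates the sequence GATC. Fused to lamin B1 (Dam-LmnB1) it marks DNA near the lamina, and alone (Dam) it marks accessible DNA. Every group received mRNA of a construct with an auxin-inducible degron, together with TIR1 and membrane-EGFP mRNA, except the ES cells, for which the protocols read here give no injection. Auxin was withheld so that methylation took place at the stage of interest.

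The groups by stage were, with Dam-LmnB1 first and Dam second, 56 and 43 oocytes, 19 and 46 zygotes, 47 and 45 cells of 2-cell embryos, 41 and 4 cells of 8-cell embryos, and for Dam-LmnB1 also 10 ES cells. Dam-LmnB1 mRNA was given at 5 ng/µl to oocytes and zygotes, 10 ng/µl for the 2-cell and 20 ng/µl for the 8-cell stage. Dam mRNA was given at 20 ng/µl to oocytes and zygotes and at 40 ng/µl for the 2-cell and 8-cell stages, so dose and construct cannot be told apart. A further 17 and 23 oocytes carry Dam-LmnB1 labels of 20 ng and 50 ng, with no volume stated. Wild-type or mutant Kdm5b mRNA at 2 µg/µl was injected with 5 ng/µl Dam-LmnB1 in 14 and 9 zygotes, 19 and 6 paternal pronuclei and 19 and 13 maternal pronuclei. Wild-type or mutant Kdm4d mRNA was injected in 12 and 10 zygotes, and 9 and 11 zygotes were treated with aphidicolin or its solvent DMSO, all with Dam-LmnB1. Pronuclei without Kdm5b, 15 paternal and 10 maternal, also carried Dam-LmnB1. Kdm5b and Kdm4d remove methyl groups from histone H3, at lysine 4 and lysine 9, and the labels leave the nature of either mutation unstated. Oocytes and mechanically separated pronuclei carry the label C57BL/6, and the crosses are C57BL/6 female x CAST/EiJ male for zygotes and for 2-cell and 8-cell embryos and 129/Sv female x CAST/EiJ male for ES cells, while the protocols name F1 (CBAxC57BL/6J) females. The strain label therefore differs between stages and is the same on both sides of every tested comparison. For paternal against maternal pronuclei the label names no strain per parent, so strain and parent of origin cannot be told apart.

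The deposited value is OE, the ratio of observed to expected reads in a bin of 1 cell, and at an OE of 1 the observed number equals the expected one. Estimated depth ran from 23563 to 1091058 reads per cell, with a median of 71769, and was 41810 (median) in zygotes with Dam-LmnB1 against 94294 in zygotes with Dam. The long gene Pcdh15 rested on a median of 47 reads per cell, and Pcdh18 and Pcdh20, with a bin each, on 2 reads. Single cells of short members are therefore coarse, and group means carry the comparison. The labels name no mother, embryo or culture dish behind a cell, so each stage group was taken as 1 sample and stages are described without a test. SDs are over cells, so a step between stage means smaller than an SD does not show that the means are alike.

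In build mm10, Pcdh9 (chr14:93013700-93892834, 9 bins), Pcdh8 (chr14:79766772-79771312, 1 bin), Pcdh17 (chr14:84443563-84537565, 2 bins) and Pcdh20 (chr14:88464743-88471396, 1 bin) lie on the same chromosome. Pcdh10 (chr3:45378398-45434579, 2 bins) and Pcdh18 (chr3:49743291-49757383, 1 bin) share chromosome 3. Pcdh7 (chr5:57716145-58133236, 5 bins) and Pcdh15 (chr10:73096277-74649831, 17 bins) stand alone. No bin of a member held another protein-coding gene, so each bin contains exons, introns or flanking DNA of that member only. The surroundings differed. Within 1 Mb of the gene there was no other protein-coding gene for Pcdh7, Pcdh9, Pcdh10 and Pcdh17, 1 for Pcdh18 and Pcdh20, 15 for Pcdh15 and 12 for Pcdh8. Pcdh15 was longer than 99.9% of protein-coding genes and Pcdh9 than 99.6%, whereas Pcdh8 was longer than 20.6%.

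The promoters of Pcdh8 and Pcdh9, the pair that moved in opposite ways, are shown from 250 bases before to 50 bases after the start listed in a table of RefSeq promoters for GRCm38.p6, 5′ to 3′ on the gene's strand (minus for both). Capitals mark GATC, the site that Dam methylates, which reads the same on both strands.
Pcdh8, chr14:79771263-79771562: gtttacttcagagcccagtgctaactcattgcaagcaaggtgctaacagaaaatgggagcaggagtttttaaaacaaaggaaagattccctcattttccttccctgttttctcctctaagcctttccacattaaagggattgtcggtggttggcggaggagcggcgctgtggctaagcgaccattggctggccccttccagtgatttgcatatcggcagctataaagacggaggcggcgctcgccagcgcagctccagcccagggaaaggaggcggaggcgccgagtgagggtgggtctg
Pcdh9, chr14:93890630-93890929: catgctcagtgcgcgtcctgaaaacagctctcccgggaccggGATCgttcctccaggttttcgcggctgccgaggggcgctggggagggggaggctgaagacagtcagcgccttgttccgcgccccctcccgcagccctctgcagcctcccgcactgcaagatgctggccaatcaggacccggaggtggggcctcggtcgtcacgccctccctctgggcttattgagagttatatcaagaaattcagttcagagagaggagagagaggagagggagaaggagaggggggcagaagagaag
All 8 members matched a listed promoter. For Pcdh7, Pcdh9 and Pcdh15 the listed start lies inside the annotated gene and not at its outer end. The Pcdh9 promoter held 1 GATC and 18 CG pairs, and that of Pcdh8 no GATC and 14 CG pairs. GATC counts were 3 for Pcdh7, 2 for Pcdh20, 1 for Pcdh10 and Pcdh15 and 0 for Pcdh17 and Pcdh18. Of 32851 promoters of this length 48.0% held at least 1 GATC. These windows cover 300 bases of bins of 100 kb, so they show the sites near the listed start and not the number of sites behind an OE value.

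With Dam-LmnB1, 6 of the 8 members had a higher mean OE in zygotes than in oocytes, and Pcdh8 and Pcdh20 a lower one. In zygotes 7 members had a mean OE above 1, the mean OE of Pcdh7 being 1.70 and that of Pcdh18 1.11, while Pcdh8 had 0.377. With Dam, the mean of Pcdh8 was 1.18 to 1.47 over the stages, and the other 7 members had means below 1 at every stage. At equal reads per cell the Pcdh8 mean in oocytes with Dam was 0.859, and at the 8-cell stage it was 0.413 without 1 of the 4 cells. A zygote with Dam-LmnB1 had a median of 5 members at an OE of at least 1, with a range of 2 to 7. A zygote with Dam had 1.5, with a range of 0 to 4. The median was 2 in oocytes, 2-cell and 8-cell cells with Dam-LmnB1 and 3.5 in ES cells.

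**Figure D1:**
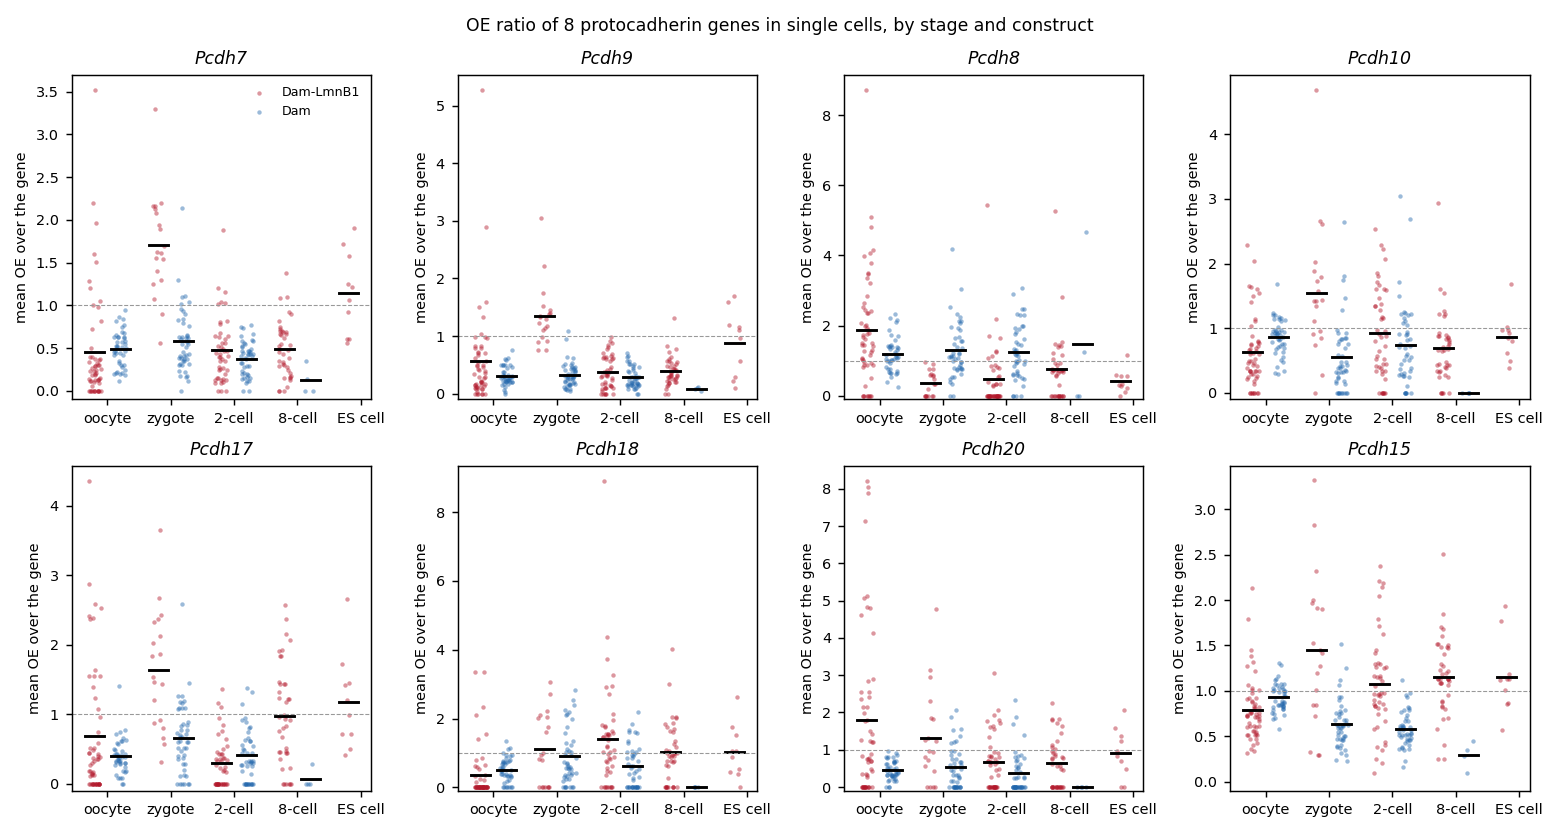
OE of each gene, averaged over its bins, in single cells (points) by stage, with Dam-LmnB1 in red on the left and Dam in blue on the right. Black lines are group means and the dashed line an OE of 1. In zygotes with Dam-LmnB1 7 of the 8 means lie above 1 and that of Pcdh8 at 0.377, and with Dam the means of the other 7 genes lie below 1.

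Pcdh7, a delta-1 member that binds the phosphatase PP1 alpha, had the highest zygote signal of the 8 members. Its OE in zygotes with Dam-LmnB1 had a lowest value of 0.563, a median of 1.62 and a highest of 3.30, and with Dam 0, 0.530 and 2.13. In Dam-LmnB1 cells the mean was 0.453 ± 0.659 in oocytes (n = 56), 1.70 ± 0.601 in zygotes (n = 19), 0.474 ± 0.377 at the 2-cell stage (n = 47), 0.488 ± 0.324 at the 8-cell stage (n = 41) and 1.14 ± 0.484 in ES cells (n = 10). The level was thus high in zygotes and ES cells, and the oocyte, 2-cell and 8-cell means differed by less than the SD. An OE of at least 1 was reached by 17 of 19 zygotes (89.5%, exact 95% interval 66.9 to 98.7%), 6 of 10 ES cells, 9 of 56 oocytes and 6 of 47 2-cell cells. These intervals take cells as independent and cover counting error only. With Dam the means were 0.494, 0.586, 0.378 and 0.124 from oocyte to 8-cell stage. Of all genes, 1.09% had a lower 2-cell minus zygote difference with Dam-LmnB1 than the -1.43 of Pcdh7 on the log2(mean OE + 0.25) scale, where the median gene stood at -0.11. At equal reads per cell the ES-cell mean of Pcdh7 was 0.743 and 3 of 10 ES cells reached 1, while the zygote mean was 1.66.

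Pcdh9, the other delta-1 member and an adhesion protein of brain neurons, also had its highest means in zygotes and ES cells. Zygotes with Dam-LmnB1 had an OE of 0.758 (lowest), 1.29 (median) and 3.05 (highest), against 0.0448, 0.293 and 1.08 in zygotes with Dam. The groups overlapped, and since these Dam-LmnB1 zygotes chose Pcdh9, their distance from Dam is a description. Its mean with Dam-LmnB1 was 0.562 ± 0.819 in oocytes, 1.35 ± 0.539 in zygotes, 0.372 ± 0.291 at the 2-cell stage, 0.390 ± 0.244 at the 8-cell stage and 0.888 ± 0.568 in ES cells. The oocyte mean was pulled up by few cells, since the median was 0.348 and the highest value 5.27. No 2-cell cell with Dam-LmnB1 reached an OE of 1 (0 of 47, exact interval up to 7.55%), against 14 of 19 zygotes. The 2-cell minus zygote difference was -1.37, with 1.36% of genes lower, and it starts from the zygote values that chose Pcdh9. With Dam the mean stayed at 0.311, 0.328 and 0.284 from oocyte to 2-cell stage. In the 4 8-cell cells with Dam the OE was 0.122, 0.0812, 0.107 and 0.0427.

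Pcdh8, a delta-2 member also called paraxial protocadherin or arcadlin, works in somite formation and at synapses. Its bin was the opposite of Pcdh9 in zygotes. With Dam-LmnB1 it had 0 (lowest), 1.57 (median) and 8.72 (highest) in oocytes and 0, 0.351 and 0.963 in zygotes. No zygote reached 1 (0 of 19), and 40 of 56 oocytes did (71.4%), given without intervals because these cells chose Pcdh8. The zygote mean was 0.377 ± 0.345 against an oocyte mean of 1.89 ± 1.59, a difference of -1.77 on the log2 scale of means. This step chose Pcdh8, so its size is a description. Thereafter the mean was 0.488 ± 0.921 at the 2-cell stage, 0.773 ± 0.939 at the 8-cell stage and 0.419 ± 0.329 in ES cells, each step being smaller than the larger of the SDs on its sides. At the 2-cell stage 26 of 47 cells had no read in the bin. With Dam the means were 1.18 ± 0.490, 1.30 ± 0.797 and 1.25 ± 0.791 from oocyte to 2-cell stage. The 8-cell Dam cells had 0, 0, 4.66 and 1.24, and their mean of 1.47 was 0.413 without the highest cell. Oocytes labelled 20 ng and 50 ng had lower means than the 5 ng/µl oocytes, 1.42 ± 1.40 (n = 17) and 1.20 ± 0.613 (n = 23). At equal reads the Pcdh8 mean was 0.354 in zygotes and 2.06 in oocytes with Dam-LmnB1. There 1 of 19 zygotes and 36 of 56 oocytes reached 1.

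Within single cells, Pcdh9 had a higher OE than Pcdh8 in 19 of 19 zygotes with Dam-LmnB1 and in 10 of 56 oocytes. The step between these oocytes and zygotes chose the pair, so the order in them is a description. Each value is relative to the expected reads of its own bins, but Pcdh9 is a mean over 9 bins and Pcdh8 is 1 bin. Their zygote means with Dam also differed, 0.328 for Pcdh9 and 1.30 for Pcdh8, so the order does not compare lamina signal alone. With Dam the same order was seen in 3 of 46 zygotes and 0 of 43 oocytes. In the other zygote groups Pcdh9 was above Pcdh8 in 9 of 9 with aphidicolin, 10 of 11 with DMSO, 8 of 14 with wild-type and 5 of 9 with mutant Kdm5b, and 8 of 12 with wild-type and 7 of 10 with mutant Kdm4d. It was above in 11 of 15 paternal and 4 of 10 maternal pronuclei without Kdm5b. Both genes at an OE of at least 1 in the same cell were seen in 0 of 19 zygotes and 4 of 56 oocytes with Dam-LmnB1.

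**Figure D2:**
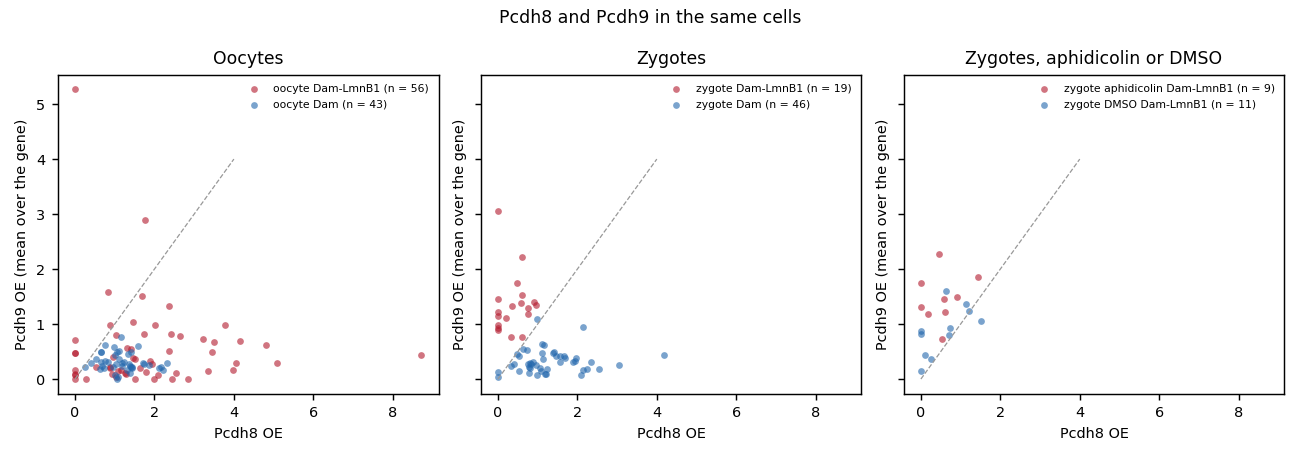
OE of Pcdh9 (y axis) against OE of Pcdh8 (x axis) in the same cells, for oocytes and zygotes with Dam-LmnB1 in red and Dam in blue, and for zygotes with aphidicolin in red and DMSO in blue. The dashed line marks equal values. All 19 zygotes with Dam-LmnB1 lie above it, as do 10 of 56 oocytes with Dam-LmnB1. The step between these oocytes and zygotes chose the pair, so their order is a description.

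Pcdh10, a delta-2 member that works in axon growth and in the removal of synapses, had an OE of 0 (lowest), 1.42 (median) and 4.69 (highest) in zygotes with Dam-LmnB1 and 0, 0.402 and 2.65 in zygotes with Dam. Its mean with Dam-LmnB1 was 0.628 ± 0.540 in oocytes, 1.55 ± 1.02 in zygotes, 0.921 ± 0.701 at the 2-cell stage, 0.694 ± 0.545 at the 8-cell stage and 0.871 ± 0.356 in ES cells. After the zygote the neighbouring stages differed by less than the SD. Pcdh10 also had the second highest Dam mean in oocytes among the members other than Pcdh8, 0.862 ± 0.283, and 0.554 ± 0.552 in zygotes with Dam, a lower difference than in all but 2.14% of genes.

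Pcdh17, a delta-2 member at synapses of the basal ganglia, had the lowest mean of the 8 members at the 2-cell stage with Dam-LmnB1. Zygotes with Dam-LmnB1 had 0.320, 1.53 and 3.64 as lowest, median and highest OE, and 2-cell cells 0, 0.226 and 1.37. The 2-cell mean was 0.299 ± 0.355 against 1.64 ± 0.854 in zygotes, a difference of -1.78 below which 0.316% of genes lay. At the 8-cell stage the mean was 0.977 ± 0.717, and 96.1% of genes had a lower 8-cell minus 2-cell difference than its 1.16. In ES cells the mean was 1.18 ± 0.677. It was 0.689 ± 0.951 in oocytes, so with Dam-LmnB1 the 2-cell mean was the lowest of its 5 stage means. With Dam its means were 0.398, 0.653, 0.412 and 0.0697 from oocyte to 8-cell stage, and 3 of the 4 8-cell cells were listed at 0.

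Pcdh18, a delta-2 member whose tail binds the adaptor Dab1, followed another order. Its mean with Dam-LmnB1 was 0.348 ± 0.777 in oocytes, 1.11 ± 1.05 in zygotes, 1.41 ± 1.52 at the 2-cell stage, 1.02 ± 0.880 at the 8-cell stage and 1.02 ± 0.772 in ES cells. The 2-cell stage had the highest mean, with an OE of 0, 1.17 and 8.90 as lowest, median and highest, and the steps after the zygote were all smaller than the SD. In oocytes 39 of 56 cells had no read in its single bin. With Dam the means were 0.518, 0.900 and 0.616 from oocyte to 2-cell stage, and all 4 8-cell cells were listed at 0, as they were for Pcdh10 and Pcdh20.

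Pcdh20, expressed in the developing nervous system, was high in oocytes like Pcdh8 but also in zygotes. With Dam-LmnB1 oocytes had 0, 0.858 and 8.21 as lowest, median and highest OE, against 0, 0.417 and 0.976 with Dam. The Dam-LmnB1 mean was 1.81 ± 2.23 and the Dam mean 0.451 ± 0.256. The difference of these means, 1.56 on the log2 scale, was above that of 99.985% of genes, but oocytes labelled 20 ng and 50 ng had means of 0.828 ± 0.990 and 0.874 ± 0.551. Across the 5 stages the Dam-LmnB1 mean went through 1.81 in oocytes, 1.32 ± 1.26 in zygotes, 0.672 ± 0.732 at the 2-cell stage, 0.645 ± 0.669 at the 8-cell stage and 0.924 ± 0.671 in ES cells, each step smaller than the SD.

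Pcdh15, the lower part of the hair cell tip link, had the narrowest span of stage means with Dam-LmnB1, from 0.795 to 1.45. The mean was 0.795 ± 0.345 in oocytes, 1.45 ± 0.837 in zygotes, 1.08 ± 0.543 at the 2-cell stage, 1.16 ± 0.430 at the 8-cell stage and 1.16 ± 0.412 in ES cells. From the 2-cell stage on it stayed within 0.08 on the log2 scale of means at each step. With Dam it was 0.929 ± 0.155 in oocytes, 0.635 ± 0.259 in zygotes, 0.581 ± 0.196 at the 2-cell stage and 0.294 ± 0.151 at the 8-cell stage. At the 8-cell stage 29 of 41 cells with Dam-LmnB1 had an OE of at least 1 (70.7%, exact interval 54.5 to 83.9%), and none of the 4 with Dam did.

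The first test asked whether lamin B1 changed the signal over these genes in zygotes, where each zygote is an embryo of its own. Of the 6 members that could be tested, 5 were higher with Dam-LmnB1 than with Dam, namely Pcdh7, Pcdh10, Pcdh15, Pcdh17 and Pcdh20, and Pcdh18 did not pass. Among 13268 genes 72.1% were called by limma at an adjusted p under 0.05, 7.65% higher and 64.4% lower, and the median gene stood at -0.70 on the log2(OE + 0.25) scale. Relative to that shift, the tested members' share of higher calls is well above the background. It is a count and no test, since the members were put together with these profiles known. Pcdh1 and Pcdh12, non-clustered protocadherins outside the 8 members, were both called lower, at -1.19 and -1.30. Pcdh8 and Pcdh9 were left out of the count and stood at -1.35 and 1.49.

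Pcdh7 differed most among the tested members, by 1.28 on the log2(OE + 0.25) scale (SE 0.17, 95% interval 0.95 to 1.62, limma adjusted p 8.98e-09), and 18 of 19 Dam-LmnB1 zygotes lay above the Dam mean. Pcdh10 differed by 1.22 (SE 0.25, interval 0.72 to 1.72, limma adjusted p 3.34e-05, 17 of 19 zygotes). For Pcdh17 the difference was 1.14 (SE 0.23, interval 0.69 to 1.59, limma adjusted p 2.13e-05, 17 of 19 zygotes). These 3 genes had mean OE of 1.55 to 1.70 with Dam-LmnB1 and of 0.554 to 0.653 with Dam. Pcdh20 was higher by 0.88 (SE 0.30, interval 0.28 to 1.49, limma adjusted p 0.00783, 14 of 19 zygotes) and Pcdh15 by 0.80 (SE 0.16, interval 0.48 to 1.13, limma adjusted p 2.79e-05, 16 of 19 zygotes). In every one of these genes the groups overlapped. For Pcdh18 the mean OE was 1.11 ± 1.05 with Dam-LmnB1 and 0.900 ± 0.788 with Dam, while the mean of log values differed by -0.01 (interval -0.64 to 0.63, limma adjusted p 0.989). Mean and test thus differ in sign for Pcdh18, and the interval leaves room for changes in either direction. By the same fit Pcdh9 stood at 1.49 and Pcdh8 at -1.35, given here without a p or an interval because these zygotes chose them.

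At equal reads per cell (28430 in each zygote) the 5 calls held, with Pcdh7 at 1.29, Pcdh17 at 1.41, Pcdh10 at 1.30, Pcdh20 at 1.01 (limma adjusted p 0.0232) and Pcdh15 at 0.77, and Pcdh18 stood at 0.42 (limma adjusted p 0.378). Read from the bin of the gene's midpoint alone, Pcdh15 (0.52, limma adjusted p 0.102) and Pcdh17 (0.62, limma adjusted p 0.0686) no longer passed.

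**Figure D3:**
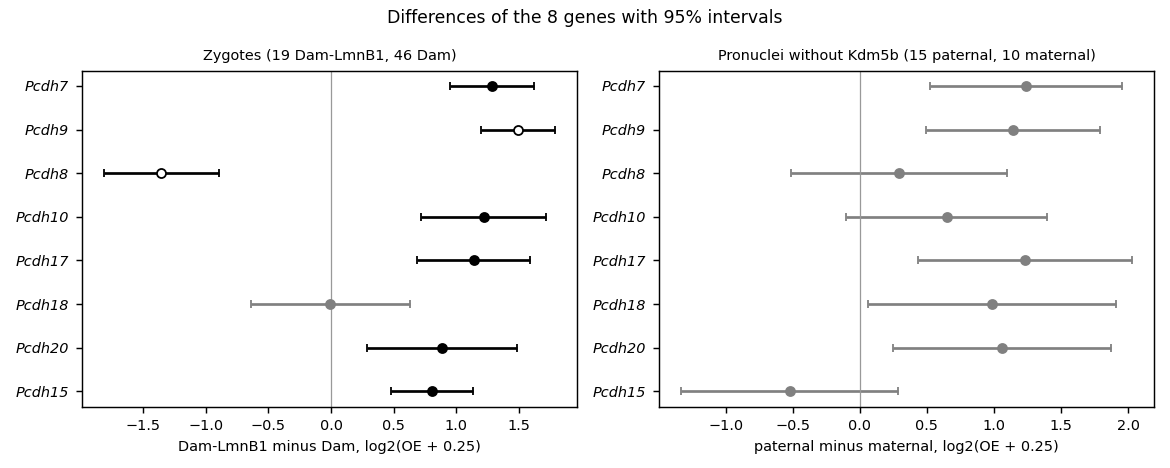
Difference of each gene on the log2(OE + 0.25) scale (points) with 95% intervals (bars), for zygotes with Dam-LmnB1 minus Dam on the left and paternal minus maternal pronuclei on the right. Black points passed limma at an adjusted p under 0.05, grey points did not, and open points (Pcdh8 and Pcdh9) were not tested. The zygotes on the left chose the genes of the open points, so their bars are no test against 0. On the left 5 points are black, and on the right 7 of 8 lie above 0 and none is black.

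Bin by bin, 59.6% of 23969 bins were called, 22.1% higher and 37.4% lower, with Dam-LmnB1 in zygotes. In Pcdh7 4 of 5 bins were higher, in Pcdh10 2 of 2, in Pcdh15 9 of 17, in Pcdh17 1 of 2 and in Pcdh20 1 of 1. The single bin of Pcdh18 was not called. In Pcdh15 the first 4 bins from the gene's lower coordinate were all called, at 0.79 to 1.30, and the last bin stood at -0.05 (limma adjusted p 0.894).

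The members took part in the signal of their neighbourhood to different degrees. In zygotes with Dam-LmnB1 the mean OE of Pcdh15 was 1.45 over its bins and 0.935 over the 20 bins within 1 Mb on either side, of which 18 were lower than the gene. Pcdh15 lay on an edge: with Dam the gene had 0.635 and its flanks 1.03. Pcdh8, with 12 genes nearby, had 0.377 against 0.897 in its flanks with Dam-LmnB1, with 1 of 20 flanking bins lower, and 1.30 against 1.13 with Dam. In oocytes with Dam-LmnB1, by contrast, the Pcdh8 bin (1.89) and its flanks (2.03) were alike. Pcdh7 had 1.70 against 1.87 in its flanks and Pcdh9 1.35 against 1.55 in zygotes with Dam-LmnB1, while Pcdh20 had 1.32 against 1.51 and Pcdh17 1.64 against 1.50. In oocytes with Dam-LmnB1 Pcdh9 had 0.562 against 1.21 in its flanks, and none of the 20 flanking bins was lower. At the 2-cell stage the bins of Pcdh9 ran from 0.117 to 0.784 and those of Pcdh15 from 0.554 to 1.55.

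**Figure D4:**
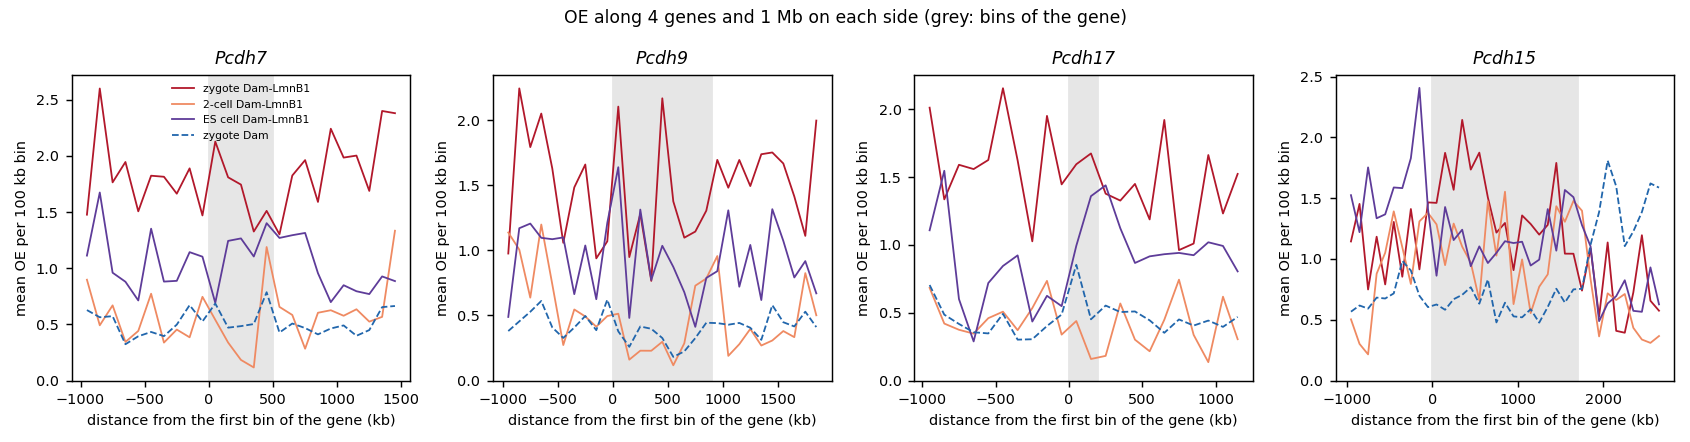
Mean OE per 100 kb bin (y axis) along Pcdh7, Pcdh9, Pcdh17 and Pcdh15 and 1 Mb on each side, by distance from the first bin of the gene in kb (x axis). Lines are zygotes, 2-cell cells and ES cells with Dam-LmnB1 and zygotes with Dam (dashed), and grey marks the gene's bins. Around Pcdh7, Pcdh9 and Pcdh17 the zygote line with Dam-LmnB1 stays above that with Dam through the flanks, while to the right of Pcdh15 it drops below it.

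The authors' LAD lists for the 2 tissues of the blastocyst, the inner cell mass (ICM) and the trophectoderm (TE), set the members apart in another readout. All bins of Pcdh15 and Pcdh20 lay in LADs of both tissues, and all bins of Pcdh7 and Pcdh8 in ICM LADs only. The bins of Pcdh10, Pcdh17 and Pcdh18 lay in TE LADs only. Pcdh9 had 1 of 9 bins (11.1%) in an ICM LAD and none in a TE LAD. Of all gene bin sets 29.8% were covered by both lists for at least 50% of their bins and 54.8% touched neither. The share of all genes in LADs of 1 tissue only was not computed, so those assignments stand without a background. Each tissue has 1 list, so these assignments carry no error.

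Paternal and maternal pronuclei without Kdm5b were compared to ask on which parental genome the zygote signal lies. For 7 of the 8 members the paternal mean was higher and for Pcdh15 lower, but no member passed limma, where 0.399% of 13270 genes were called, 0.309% higher and 0.0904% lower. The median gene stood at 0.08 on the log2(OE + 0.25) scale, and the share of all genes with a higher paternal mean is not given here. Pcdh9 had an OE of 0.206, 1.24 and 2.26 (lowest, median, highest) in paternal and 0.145, 0.305 and 1.25 in maternal pronuclei, a difference of 1.14 on the log2(OE + 0.25) scale (SE 0.32, interval 0.49 to 1.79, limma adjusted p 0.0811). Of 15 paternal pronuclei 7 lay above all 10 maternal ones. Pcdh7 had 0.350, 1.66 and 2.69 in paternal and 0, 0.500 and 1.85 in maternal pronuclei, a difference of 1.24 (SE 0.35, interval 0.52 to 1.95, limma adjusted p 0.0862). For both genes 14 of 15 paternal pronuclei lay above the maternal mean.

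The other members had wider intervals. Pcdh17 differed by 1.23 (interval 0.43 to 2.03, limma adjusted p 0.135), Pcdh20 by 1.06 (0.25 to 1.88, limma adjusted p 0.218) and Pcdh18 by 0.98 (0.06 to 1.91, limma adjusted p 0.334). Pcdh10 stood at 0.65 (-0.10 to 1.39), Pcdh8 at 0.29 (-0.52 to 1.10) and Pcdh15 at -0.52 (-1.33 to 0.29). Pcdh15 had a mean OE of 1.10 ± 0.918 in paternal and 1.67 ± 1.16 in maternal pronuclei. Single bins passed more often: 1 of 5 bins of Pcdh7 and 2 of 9 of Pcdh9 were higher in paternal pronuclei, at 1.70, 1.79 and 1.85, where 2.34% of all bins were called, 2.04% higher and 0.300% lower. These 3 bins did not pass at equal reads (31433 per pronucleus). Median depth was 144974 reads in paternal and 83404 in maternal pronuclei, and 53 genes called became 6 at equal reads. There Pcdh7 stood at 1.18 (limma adjusted p 0.300), Pcdh9 at 0.92 (limma adjusted p 0.404), Pcdh17 at 1.08 (limma adjusted p 0.421) and Pcdh20 at 1.50 (limma adjusted p 0.245). Per pronucleus a median of 6 members had an OE of at least 1 in paternal and 3 in maternal pronuclei.

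Kdm5b, a demethylase of histone H3 lysine 4, was compared as wild type against mutant. In zygotes, 2.95% of 13250 genes were called, 2.88% higher and 0.0679% lower with wild type, and none was a member. The 391 genes called became 9 at equal reads, 13 with a pseudocount of 1 and 0 with the replicate number as a block, and the zygotes given wild-type Kdm5b had a median of 216228 reads, against 85761 in those given the mutant. Differences ran from -0.47 for Pcdh10 (interval -1.15 to 0.21, limma adjusted p 0.341) to 0.50 for Pcdh17 (-0.20 to 1.19, limma adjusted p 0.322), where the median of all genes was 0.44. Pcdh10 averaged 1.18 ± 0.623 with wild-type and 1.67 ± 0.899 with mutant Kdm5b. In paternal pronuclei 0.226% of 13270 genes were called and no member passed. Pcdh10 came nearest, with an OE of 0, 0.642 and 2.37 (lowest, median, highest) with wild type (n = 19) against 1.04, 1.46 and 2.22 with mutant (n = 6), a difference of -1.02 (SE 0.31, interval -1.66 to -0.38, limma adjusted p 0.118). All 6 pronuclei with mutant Kdm5b had an OE of at least 1 at Pcdh10, and 4 of 19 with wild type did. Pcdh9 stood at -0.39 (interval -0.83 to 0.04) and Pcdh8 at -0.63 (-1.44 to 0.19).

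In maternal pronuclei 0.0302% of 13250 genes were called and the members ran from -0.74 for Pcdh17 (interval -1.52 to 0.04, limma adjusted p 0.376) to 0.48 for Pcdh10 (-0.29 to 1.26, limma adjusted p 0.579). The difference between the Kdm5b effects in paternal and maternal pronuclei was tested itself. It was -1.50 for Pcdh10 (SE 0.55, interval -2.59 to -0.41, limma adjusted p 0.954), and 0.0% of 13275 genes passed, with 657 at an unadjusted p under 0.05. Pcdh10 thus had opposite signs in paternal and maternal pronuclei, and the difference did not pass.

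Kdm4d, a demethylase of histone H3 lysine 9, gave no called gene in zygotes (0.0% of 13246, 447 at an unadjusted p under 0.05). The members ran from -0.19 for Pcdh7 (interval -0.84 to 0.46) to 0.58 for Pcdh18 (-0.32 to 1.47), each with a limma adjusted p of 1.00. Pcdh15 had nearly equal means, 1.62 ± 0.472 with wild-type and 1.61 ± 0.751 with mutant Kdm4d. With aphidicolin, an inhibitor of DNA replication, 0.00755% of 13239 genes were called against DMSO and none was a member. Pcdh9 had an OE of 0.724, 1.45 and 2.27 (lowest, median, highest) with aphidicolin and 0.151, 0.872 and 1.61 with DMSO. Its difference was 0.69 (SE 0.32, interval 0.04 to 1.34, limma adjusted p 0.999), and 8 of 9 zygotes with aphidicolin lay above the DMSO mean. In each of these 2 comparisons 0.00418% of all bins were called, none of them in a member. Pcdh7 stood at 0.44 (interval -0.20 to 1.08) with aphidicolin and the others ran from -0.37 for Pcdh17 to 0.34 for Pcdh10. The intervals in these comparisons are wide and leave room for changes of the size seen between the constructs in some members.

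**Figure D5:**
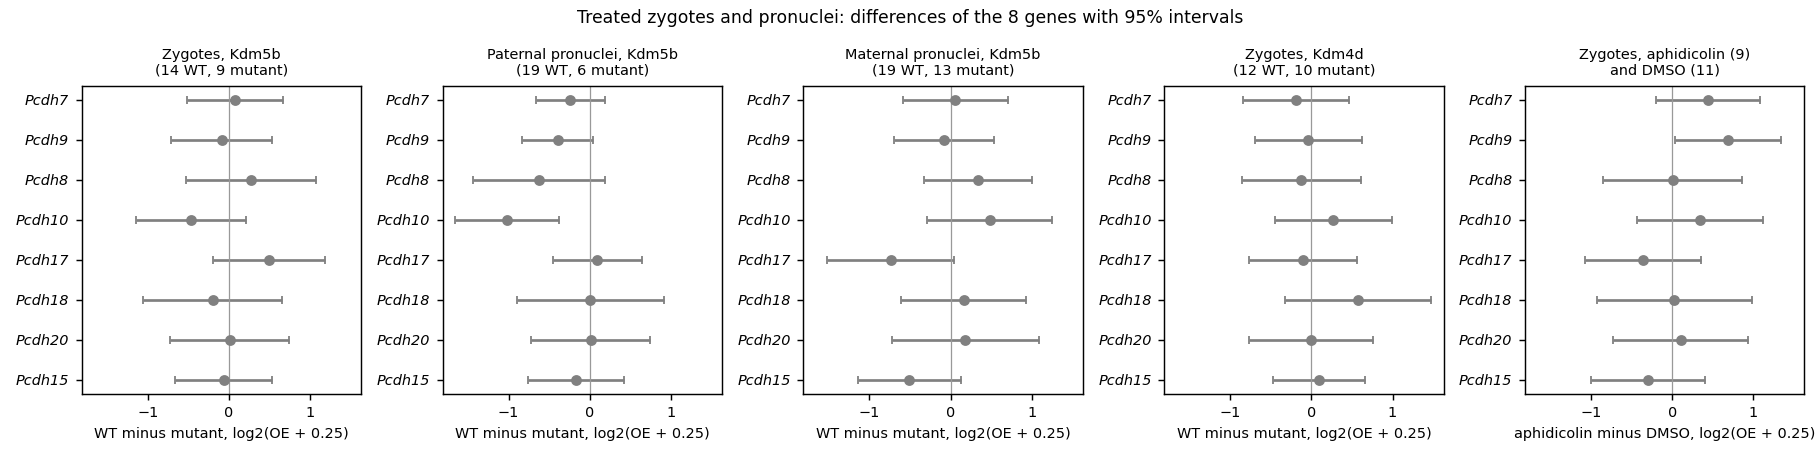
Difference of each gene on the log2(OE + 0.25) scale (points) with 95% intervals (bars) for wild-type minus mutant Kdm5b in zygotes, paternal and maternal pronuclei, wild-type minus mutant Kdm4d in zygotes and aphidicolin minus DMSO in zygotes. No point passed limma at an adjusted p under 0.05, and Pcdh10 in paternal pronuclei, at -1.02, lies farthest from 0.

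Among the members, Pcdh7 and Pcdh9 were the most alike over the 9 stage and construct groups, with a root mean square difference of 0.30 in log2(mean OE + 0.25), followed by Pcdh7 and Pcdh17 at 0.33. Pcdh8 was the least like the rest, at 1.02 from Pcdh15 and 1.35 from Pcdh9. On other chromosomes the genes closest to Pcdh9 were Gabrg1, a GABA receptor subunit (chromosome 5, 0.21), a bin of the olfactory receptors Olfr44, Olfr952, Olfr954 and Olfr955 (chromosome 9, 0.23) and Kcnj3, a potassium channel gene (chromosome 2, 0.28), where the median gene was 1.27 away. Closest to Pcdh8 were the bin of the carbonyl reductases Cbr1 and Cbr3 (chromosome 16, 0.21), the zinc finger gene Zfp60 (chromosome 7, 0.22) and Gm30447 (chromosome 9, 0.23), where the median gene was 0.65 away. These distances describe the likeness of mean profiles and carry no p.

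Of 42 other cadherin genes in zygotes 9 were higher with Dam-LmnB1, 28 lower and 5 not called, with a median of -0.77. Over all genes 7.65% were higher and 64.4% lower, with a median of -0.70. These shares of all genes are not from equal reads, where 6471 genes were called in place of 9566. At equal reads 9 of the 42 were higher and 20 lower. The strongest changes were decreases, of Cdh15 (-1.63, limma adjusted p 7.74e-07), the cadherin of muscle satellite cells, of Cdhr4 (-1.54) and of Cdh22 (-1.42). The 9 higher genes, named after their values were seen, were Cdh7, Cdh8, Cdh9, Cdh10, Cdh11, Cdh12, Cdh18, Cdh19 and Cdh20, all type II cadherins of neurons, glia or mesenchyme. Other type II cadherins, Cdh5, Cdh6, Cdh22 and Cdh24, were lower. Pcdh1 and Pcdh12, also non-clustered protocadherins, stood at -1.19 and -1.30 and were both called lower.

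Of 12 tip link partners of Pcdh15 none was higher, 9 were lower and 3 were not called (median -0.89), the strongest being Whrn (-1.27), Ush1c (-1.26) and Lhfpl5 (-1.12). Cdh23, the upper part of the tip link and also in the cadherin list, was lower, at -0.93 (limma adjusted p 2.83e-06), with a mean OE of 0.698 with Dam-LmnB1 and 1.44 with Dam. Of 13 cytoplasmic partners of delta protocadherins 1 was higher, Abi1 (0.79), 9 were lower and 3 not called (median -0.70), led by Set (-1.78), Cyfip1 (-1.27) and Taok2 (-1.14). Over all genes 64.4% were lower and 7.65% higher, with a median of -0.70. At equal reads, where fewer of all genes were called (6471 in place of 9566), 6 of the 12 tip link partners were lower. Of the 13 cytoplasmic partners 1 was higher and 7 lower at equal reads, while none of the 13 was higher with the replicate number as a block. In the other 6 comparisons the only calls in these lists were Cdh22 (1.23), Cdh15 (1.22) and Celsr2 (1.12), higher with wild-type than mutant Kdm5b in zygotes. None of these 3 passed at equal reads (limma adjusted p 0.127, 0.314 and 0.278), with a pseudocount of 1, with the midpoint bin, among all annotated genes or with the replicate number as a block.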

How the data were processed

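The submitters' processing notes name cutadapt, BWA 0.7.12 and the build mm10, without saying what each was used for. The authors deposited an OE ratio, observed over expected reads, for 512 cells in 24639 autosomal bins of 100 kb, and LAD coordinates for ICM and TE. The steps from reads to expected reads and to LADs are not stated in the labels. The 14 cells with contradicting labels, 13 oocytes and 1 cell of an 8-cell embryo, entered no comparison, and samples made from pools were not used here.

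The members and lists were chosen with earlier results of these data known. Genes were taken from RefSeq (GRCm38.p6), and bins with NA (617) were left out. The value of a gene is the mean OE over its bins. Groups were compared with limma 3.58.1 in R 4.3.3 on log2(OE + 0.25), over all distinct protein-coding bin sets with a mean OE of at least 0.1, with Benjamini-Hochberg adjustment. A fold on this scale understates the change of low bins. Labels do not say whether zygotes shared a mother or a day, so p-values set differences against the spread between these embryos or pronuclei only. The labels also do not say whether a paternal and a maternal pronucleus came from the same zygote, and these groups were compared unpaired. The named genes were the 8 members, the 3 genes on other chromosomes closest to Pcdh8 and to Pcdh9, and the 3 largest called changes of each list.

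OE values are whole multiples of the worth of 1 read in a bin, so reads were recovered from these steps. At a tolerance of 0.02 reads 100.0% of the non-zero values in 23898 bins came out whole. The reads served to thin cells to equal depth and are estimates, and since PCR copies cannot be told apart, intervals cover counting error only. The scripts were tested on simulated data, where the zygote comparison of constructs, whose depths differ, gave more false calls than its threshold allows, so the report gives the members' calls and the counts of each list at equal reads as well. There 6471 genes were called in place of 9566. Of the 38 bins of members 23 were called in place of 26, counting bins of Pcdh8 and Pcdh9, which were described only. Before thinning 59.6% of all bins were called, and their share at equal reads is not given here. Python 3.11.15, numpy 2.4.6, pandas 2.3.3 and scipy 1.17.1 were used. Alternatives were pseudocounts of 0.1 and 1, no filter, equal reads, the replicate number as a block, the midpoint bin, all annotated genes, and an OE of at least 2 in place of 1. Same-numbered samples are not said to share an animal or day.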

Additional observations from a re-analysis of the deposited data

Results flagged for a closer look

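A sample far from the rest of its group was looked for in groups of 4 to 10 cells. Of 56 combinations of gene and group 4 were found. The limit used gives about 1 in 20 by chance for normally distributed values. OE values come in steps and are often 0, so that rate need not hold here. In ES cells with Dam-LmnB1, replicate 9 had a Pcdh8 OE of 1.17 where the nearest other cell had 0.605, and replicate 7 a Pcdh10 OE of 1.68 where the nearest other had 1.02. In zygotes with aphidicolin, replicate 9 had a Pcdh17 OE of 2.31 where the nearest other had 1.10. Among the 8-cell cells with Dam, replicate 4 had a Pcdh17 OE of 0.279 where the other 3 were at 0, so any read in that cell alone would have been flagged.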

How the results depend on the processing

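The 5 calls in zygotes with Dam-LmnB1 against Dam held under both pseudocounts, without the filter, at equal reads and with the replicate number as a block, and the midpoint bin alone ended those of Pcdh15 and Pcdh17. Of the members' log2 differences 393 kept direction and side of the threshold, 2 lost the call and 37 changed sign, none of which was called in either setting. The cause of these changes was not tested. Counting cells at an OE of at least 2 in place of 1 moved 55 of 72 shares of cells and equal reads 12: for Pcdh7 in zygotes with Dam-LmnB1 17 of 19 cells became 6, and for Pcdh15 in 8-cell cells with Dam-LmnB1 29 of 41 became 1. Short members rest on few reads, which limits single cells and the small groups.

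Of the counts of genes called, that for zygotes with Dam-LmnB1 against Dam was 9566 and became 15557 with all annotated genes, where more genes were tested. For Kdm5b in zygotes 391 became 13 with a pseudocount of 1, 9 at equal reads, 36 with the midpoint bin and 153 with all annotated genes. For Kdm5b in paternal pronuclei 30 became 16 with a pseudocount of 1, 2 at equal reads and 0 with the midpoint bin. For Kdm5b in maternal pronuclei 4 became 16 with a pseudocount of 0.1 and 0 with a pseudocount of 1, the midpoint bin or all annotated genes. Kdm4d had 0 and 2 with all annotated genes, and aphidicolin 1 and 0 with a pseudocount of 1. Paternal against maternal pronuclei had 53, then 6 at equal reads and 276 with all annotated genes, and the members' bins called there were 3, then 0 at equal reads.

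Same-numbered samples did not deviate together: the highest correlation was 0.126, 1 pair exceeded 0.1, and 0 to 2 samples per comparison correlated best with their own number. With the replicate block the count was 0 for Kdm5b in zygotes, in paternal and in maternal pronuclei, and 13 for paternal against maternal pronuclei. The members' bins called with the replicate block were 16 in place of 26 in zygotes with Dam-LmnB1 against Dam, counting bins of Pcdh8 and Pcdh9, which were described only, and 1 in place of 3 in pronuclei. The block changed no call of a member.

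Among the sign changes, a pseudocount of 0.1 gave Pcdh18 -0.0913 in paternal pronuclei with Kdm5b and -0.0698 with aphidicolin, and Pcdh20 -0.044 in zygotes and -0.0066 in paternal pronuclei with Kdm5b. A pseudocount of 1 gave Pcdh7 -0.0065 and Pcdh20 -0.0070 in maternal pronuclei with Kdm5b, Pcdh8 -0.0232 with aphidicolin, Pcdh9 0.0019 and Pcdh20 0.0515 with Kdm4d, Pcdh18 0.0798 in zygotes with Dam-LmnB1 against Dam, and Pcdh18 0.0315 and Pcdh20 0.0152 for the difference of the Kdm5b effects. Equal reads gave Pcdh8 -0.33 and Pcdh20 -0.0752 for Kdm5b in zygotes, Pcdh18 -0.0219 and Pcdh20 -0.61 in paternal and Pcdh7 -0.19, Pcdh18 -0.31 and Pcdh20 -0.14 in maternal pronuclei, Pcdh18 -0.14 and Pcdh20 0.41 with Kdm4d, Pcdh8 -0.0357, Pcdh18 -0.19 and Pcdh20 -0.14 with aphidicolin, and Pcdh18 0.42 in zygotes with Dam-LmnB1 against Dam. The midpoint bin gave Pcdh9 0.0897, Pcdh10 0.0024 and Pcdh15 0.21 for Kdm5b in zygotes and Pcdh15 -0.11 with Kdm4d. The replicate block gave Pcdh7 0.0397 and Pcdh18 -0.73 in paternal pronuclei and Pcdh8 -0.11, Pcdh18 0.0143 and Pcdh20 -0.20 in zygotes with Kdm5b, Pcdh9 0.0119 and Pcdh20 0.10 with Kdm4d, and Pcdh18 0.15 in zygotes with Dam-LmnB1 against Dam.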

Other observations

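The 13 oocytes whose labels name both 20 ng and 50 ng had a Pcdh8 OE of 0.636 to 2.45 with a median of 1.33, a Pcdh9 OE of 0.139 to 1.13 with a median of 0.679, and a Pcdh20 OE of 0 to 2.51 with a median of 0.813. The cell of an 8-cell embryo labelled with both constructs had a Pcdh8 OE of 1.06, a Pcdh9 OE of 0.251 and a Pcdh17 OE of 1.02.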
